A study of Mus musculus with 19 samples.

Results

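The genes described here encode the 3 main families of conjugating enzymes of the mouse: the UDP-glycosyltransferases (UGT), the cytosolic and mitochondrial glutathione S-transferases (GST) and the cytosolic sulfotransferases (SULT). They were chosen by symbol alone: every gene whose name begins with Ugt, Sult or a GST class prefix (Gsta, Gstm, Gstp, Gstt, Gstk, Gsto or Gstz) followed by a digit. The rule found 72 of 54532 genes in the deposited tables, namely 22 UGT, 23 GST and 27 SULT genes. Of these, 65 are annotated as protein coding and 7 as pseudogenes. The membrane-bound GSTs (Mgst genes) do not carry these prefixes and are treated as a separate list.

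The study's title names kidney-specific genes of the mouse as its subject. It sequenced total RNA of 19 C57BL/6J tissues, each a single sample from animals labelled male, chow-fed and aged 8 weeks. The labels give no treatment or engineered allele, and deposited column headers mark 13 of the tissues as WT (wild type). Kidney, liver, colon, stomach, eye, brain, testis, white adipose tissue (WAT), heart, skeletal muscle, aorta, parathyroid and thymus have FPKM, a level per transcript length (in kilobases) and per 1000000 reads assigned to genes, whereas intestine, lung, skin, bone, spleen and brown adipose tissue (BAT) have raw counts. The counts were put on the same FPKM scale, so levels set across these 13 and 6 tissues rest on that conversion. With 1 library per tissue there is no replicate check and no p-value, and whether a tissue came from 1 mouse or a pool is not stated in the labels. The 95% intervals below are exact binomial intervals on reads and cover counting error only.

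Conjugation makes lipid-soluble compounds water-soluble, so that they can leave in bile or urine. UGTs sit in the membrane of the endoplasmic reticulum and transfer a sugar, usually glucuronic acid, to bilirubin, steroids, bile acids and drugs. GSTs attach the tripeptide glutathione to electrophiles such as lipid peroxidation products, and SULTs transfer sulphate from the donor PAPS to phenols, steroids and catecholamines. Liver is the textbook organ of all of these reactions, with intestine and kidney as further sites.

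Assigned reads per library ranged from 11135276 in colon to 17263334 in parathyroid. Several libraries stood apart from their labels or held RNA of other tissues. Xist, the RNA of the inactive X chromosome of females, reached 90.9 FPKM in kidney, where 4 Y-linked genes summed to 0.140, and 97.5 FPKM in eye, where they summed to 0.0894, although both libraries are labelled male. The mean of the other 2 kidney libraries, taken from the authors' deposited kidney mean, had Xist at 94.2 FPKM and the Y-linked genes at 0.00931. Aorta and parathyroid held both Xist and Y-linked RNA, and aorta held 3 thyroid markers at 8.45% to 9.54% of their parathyroid level. The liver library held all 6 kidney tubule markers at 2.11% to 20.3% of their kidney level (median 5.39%). Thymus held the 5 hepatocyte markers at 1.37% to 2% of liver and heart at 0.371% to 0.509%. WAT held epididymis markers that summed to 15103 FPKM against 0 in BAT, and 4 germ cell markers at 0.618% to 8.81% of testis. For several members whose level in such a library bears on a result below, the percentage of the source tissue is given beside it. In bulk tissue, fewer cells of a type and less RNA per cell cannot be told apart.

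Promoter windows are shown first for 6 members whose tissues differ, of which 4 are neighbours in one locus. The Ugt1a genes share their last exons and differ in the first, so each has its own start site, and these windows are what distinguishes them as transcription units. Windows run from 250 bases before the annotated start to 50 after it, from RefSeq on GRCm38.p6, printed 5′ to 3′ on the gene's strand. Capitals mark an element that binds HNF1 (GTTAAT, any base, then ATTNA, on either strand) in the 3 Ugt1a windows that hold it and in Sult1d1, where the later run of capitals marks a xenobiotic response element (TNGCGTG, either strand) and does not overlap it. In Gsta3 they mark an antioxidant response element (TGACNNNGC, either strand). Ugt1a10 (chr1:88055161-88055460, plus strand) and Ugt1a2 (chr1:88200361-88200660, plus strand) were highest in kidney, Ugt1a9 (chr1:88070529-88070828, plus strand) in liver and Ugt1a1 (chr1:88211709-88212008, plus strand) in intestine and liver. Sult1d1 (chr5:87568957-87569256, minus strand) was highest in kidney and Gsta3 (chr1:21240335-21240634, plus strand) in liver.
Ugt1a10: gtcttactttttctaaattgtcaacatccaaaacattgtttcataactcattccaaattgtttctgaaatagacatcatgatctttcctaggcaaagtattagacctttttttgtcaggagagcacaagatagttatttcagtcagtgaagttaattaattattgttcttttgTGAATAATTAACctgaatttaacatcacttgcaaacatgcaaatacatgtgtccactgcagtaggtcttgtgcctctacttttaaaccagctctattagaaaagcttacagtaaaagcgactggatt
Ugt1a9: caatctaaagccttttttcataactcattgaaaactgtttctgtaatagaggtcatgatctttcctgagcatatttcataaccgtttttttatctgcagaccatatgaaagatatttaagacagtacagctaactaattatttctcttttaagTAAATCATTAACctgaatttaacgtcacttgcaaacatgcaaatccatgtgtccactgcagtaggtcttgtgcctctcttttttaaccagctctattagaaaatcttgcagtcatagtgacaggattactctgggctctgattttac
Ugt1a2: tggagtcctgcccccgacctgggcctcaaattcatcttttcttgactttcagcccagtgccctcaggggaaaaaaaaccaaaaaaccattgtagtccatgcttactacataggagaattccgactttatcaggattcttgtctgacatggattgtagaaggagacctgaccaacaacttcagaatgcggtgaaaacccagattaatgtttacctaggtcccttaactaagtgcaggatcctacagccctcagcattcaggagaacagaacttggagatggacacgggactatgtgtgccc
Ugt1a1: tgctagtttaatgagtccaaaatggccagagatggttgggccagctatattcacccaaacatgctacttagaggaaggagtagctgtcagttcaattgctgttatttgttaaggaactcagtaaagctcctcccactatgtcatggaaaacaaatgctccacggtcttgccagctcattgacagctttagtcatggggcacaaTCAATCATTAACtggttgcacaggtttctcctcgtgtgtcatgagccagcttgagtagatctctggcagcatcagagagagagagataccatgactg
Sult1d1: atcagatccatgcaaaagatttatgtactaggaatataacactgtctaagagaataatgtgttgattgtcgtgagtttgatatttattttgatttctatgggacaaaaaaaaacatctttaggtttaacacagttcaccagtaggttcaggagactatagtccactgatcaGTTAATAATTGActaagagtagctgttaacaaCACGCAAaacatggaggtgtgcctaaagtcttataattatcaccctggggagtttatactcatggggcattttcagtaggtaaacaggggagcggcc
Gsta3: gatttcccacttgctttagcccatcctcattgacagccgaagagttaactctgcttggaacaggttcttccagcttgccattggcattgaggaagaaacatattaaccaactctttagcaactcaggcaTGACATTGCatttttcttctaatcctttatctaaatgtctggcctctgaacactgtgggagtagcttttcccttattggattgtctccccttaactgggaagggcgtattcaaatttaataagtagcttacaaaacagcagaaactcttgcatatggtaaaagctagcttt

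A window was available for 57 of the 72 members (68 windows). The HNF1 element lay in 4 of these windows, against 0.155% of all 32851 windows in the table. It stood 77 bases before the start of Ugt1a10, 97 before Ugt1a9, 47 before Ugt1a1 and 79 before Sult1d1. Both kidney-high and liver-high members were among the 4. A stricter form of the HNF1 element, with its last free base fixed, lay in 0 of the 68 windows, against 0.0609% of all windows. The Ugt1a2 window held no match to the 3 elements marked in capitals. Ugt1a9 and Ugt1a10 both held the HNF1 element and differed in their leading tissue. Their windows were 73.3% identical over 329 aligned bases. The other pairs of the 4 Ugt1a windows shown were 50.6% to 54.4% identical. The antioxidant response element lay in 3 of the 68 windows, those of Gsta3, Gstm5 and Gstm7 (12.4% of all windows). The xenobiotic response element also lay in 3, those of Gsta2, Sult1d1 and Ugt1a5 (5.07%). The HNF4 element CAAAGTCCA lay in that of Sult1b1 (0.475%). The TATA box TATAAA lay in 15 of the 68 windows, from 14 members, against 13.6% of all windows. Such matches describe letters in these windows, not binding.

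At least 1 FPKM was reached in some tissue by 54 of the 72 members: 19 UGT, 23 GST and 12 SULT genes. The GST genes were broadly transcribed, and 12 of them (Gsta4, Gstk1, Gstm1, Gstm2, Gstm4, Gstm5, Gsto1, Gstp1, Gstt1, Gstt2, Gstt3 and Gstz1) were at 1 FPKM or more in all 19 tissues. Sult1a1, a phenol sulfotransferase, was the 1 SULT gene to do so, and 0 UGT genes did. The index tau, which is 0 for equal levels and 1 for a single tissue, had a median over 19 tissues of 0.93 for UGT, 0.89 for SULT and 0.51 for GST genes, against 0.69 over all 27937 genes at 1 FPKM or more. The widest spread among members at 10 FPKM or more was that of Gstm1 (tau 0.25). The narrowest was that of Ugt1a2 (0.997).

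Liver held 42 members at 1 FPKM or more, followed by intestine with 36, kidney with 35, and colon and thymus with 33 each. Skeletal muscle and spleen held the fewest, 16 each. In thymus, the 13 members described below as liver-enriched ranged from 1.16% of their liver level (Ugt2b36) to 7.16% (Ugt2b37). Ugt2b37, Gstp1 (5.55%), Ugt1a9 (4.26%), Gsta3 (2.97%) and Ugt1a6b (2.96%) lay above the hepatocyte markers' highest value, 2%. Thymus also held Scgb1a1, a marker of lung club cells, at 2337 FPKM (39398 in lung). Ucp1, a marker of brown fat, was at 359 FPKM there (2541 in BAT). Gsta3 was also at 169 FPKM in lung. The part of admixed RNA of liver or other tissues in the thymus count was not tested. In level, 33 members reached 100 FPKM in some tissue and 8 reached 1000, and all of those 8 were GST genes (Gsta3, Gsta4, Gstm1, Gstm2, Gstm5, Gstm7, Gsto1 and Gstp1).

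**Figure D1:**
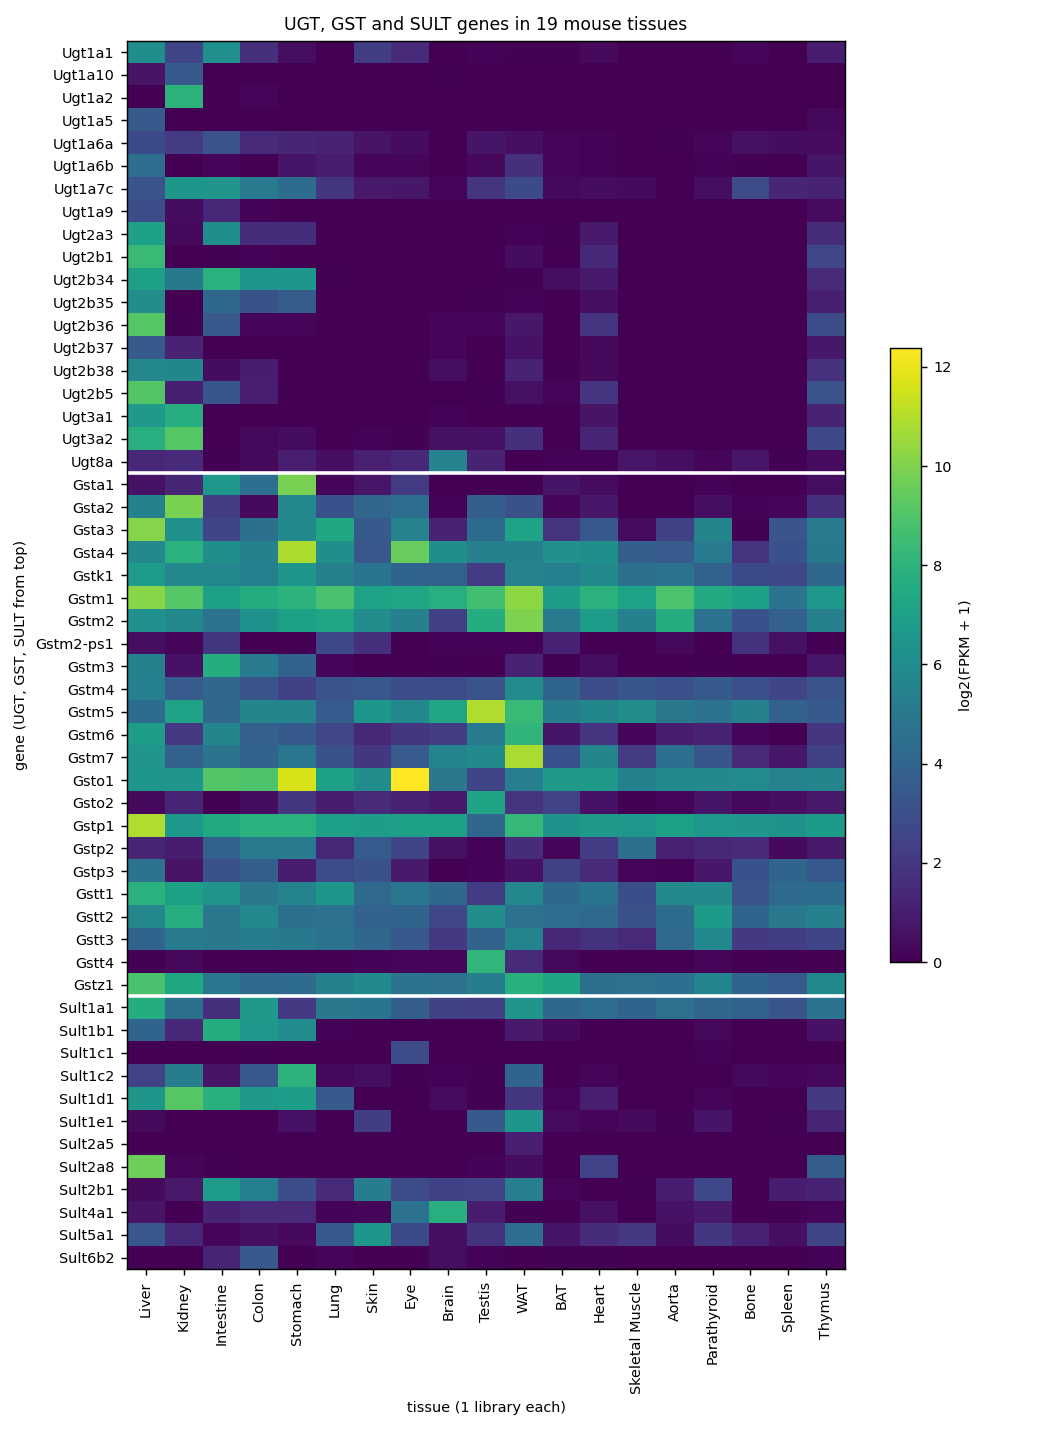
Levels of the 54 members that reached 1 FPKM in some tissue, as log2(FPKM + 1), with genes in rows by family and tissues in columns, 1 library each. GST genes fill most columns, whereas UGT and SULT genes are bright in liver, kidney, intestine, colon and stomach and dark in most other tissues.

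The 18 members that stayed under 1 FPKM everywhere were 6 pseudogenes and 12 coding genes. No read was assigned in any library to 9 of them (Sult1c2-ps1, Sult1c2-ps2, Sult2a-ps2, Sult2a-ps3, Sult2a-ps4, Sult2a1, Sult2a6, Ugt2a1 and Ugt2a2). Of the Sult2a genes of chromosome 7, which encode hydroxysteroid sulfotransferases, Sult2a8 alone was abundant, at 803 FPKM in liver. Its neighbour Sult2a7 peaked at 0.956 FPKM in liver and Sult2a5 at 1.08 FPKM in WAT. Ugt2a1 and Ugt2a2, known for the olfactory epithelium, had no read, and nasal tissue was not among the 19.

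Summed over members, the UGT genes reached 2242 FPKM in liver, 1210 in kidney, 515 in intestine, 140 in colon, 128 in stomach and 45.8 in brain. Ugt2b36 led in liver (24.8% of the sum) and Ugt3a2 in kidney (45.6%), while Ugt2b34 led in intestine (46.1%), colon (63.4%) and stomach (70.8%). By reads in liver, Ugt2b5 (15417) and Ugt2b1 (12819) stood above Ugt2b36 (9204). The gene length behind the Ugt2b36 FPKM, 1067 bases, was shorter than its 1590 coding bases. The brain sum was almost wholly Ugt8a (96.7%). The SULT sum had the same first 3 tissues, with 1126 FPKM in liver, led by Sult2a8 (71.2%), 643 in kidney, led by Sult1d1 (89.9%), and 554 in intestine, also led by Sult1d1 (42.4%). The GST sum had another order, with 6981 FPKM in stomach, 6655 in eye, 5678 in WAT, 5665 in liver, 3253 in testis and 2821 in kidney, and 280 in spleen, the lowest. Eye owed 80.4% of its GST sum to Gsto1.

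**Figure D2:**
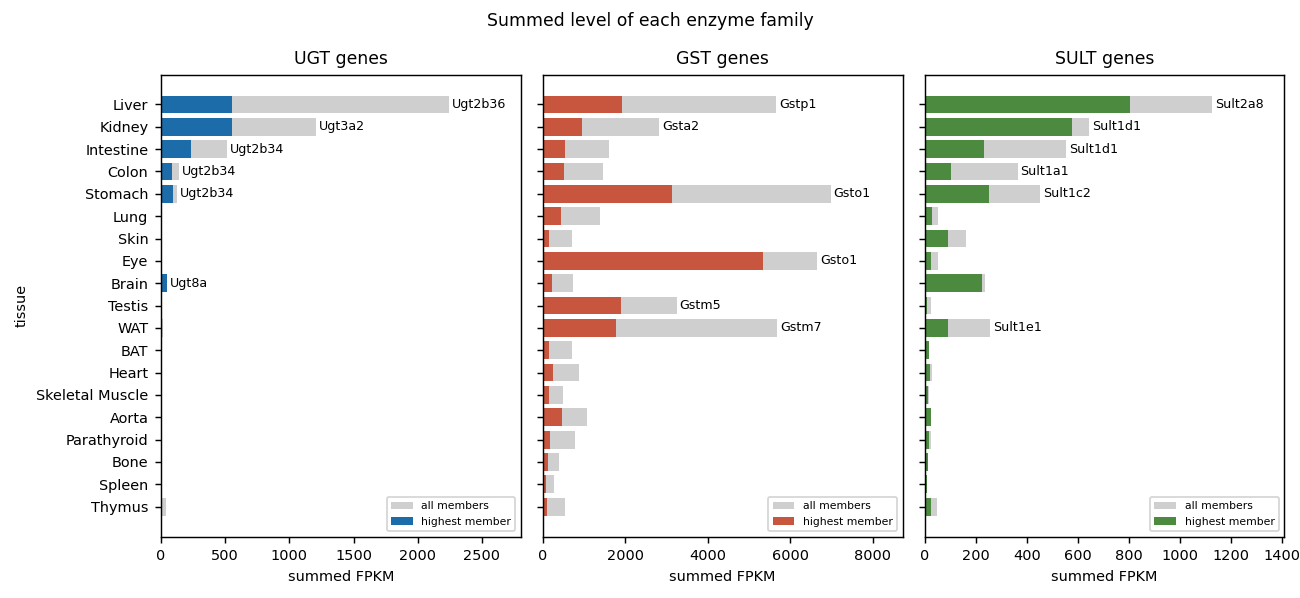
Summed FPKM of the UGT, GST and SULT genes in each of 19 tissues (grey bars) with the part due to the highest member (coloured), which is named in the 6 tissues with the largest sums. The liver bar leads for UGT (2242 FPKM) and SULT (1126 FPKM), and the stomach bar (6981 FPKM) for GST.

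Of the 54 members, 18 had their highest level of 19 tissues in liver (2.99% of all genes) and 8 in kidney (3.24%). The next question was which members belong to 1 tissue. Enrichment in a tissue required at least 1 FPKM there and at least 4 times the level of any other tissue, after 0.1 FPKM was added to both. Among the 13 tissues of the FPKM table, 30 of 53 members at 1 FPKM were enriched in 1 tissue, against 32.4% of all genes. These were 13 of 19 UGT, 9 of 22 GST and 8 of 12 SULT genes. Liver held 13 of the 30 (1.5% of all genes were enriched in liver), kidney 4 (0.989%), WAT 4 (1.28%) and testis 3 (16.8%). Stomach held 2 (0.47%), brain 2 (2.56%), colon 1 (1.62%) and eye 1 (2.5%). With all 19 tissues, 28 of 54 members were enriched (28.3% of all genes), 26 of them in the same tissue as before. Sult1d1, Ugt1a1, Ugt1a9 and Ugt2a3 left because intestine came within 4-fold of their leading tissue, while Gstm3 (intestine, 0.677% of all genes) and Sult5a1 (skin, 0.795%) joined. With an 8-fold rule the count over 19 tissues was 18.

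Kidney was the tissue the series was built around, and its 4 enriched members came from each family. Gsta2, an alpha-class GST (chr9:78331018-78355788, minus strand, GRCm38), was at 944 FPKM in kidney, with a lowest level of 0 and a median of 2.29 over the 19 tissues. Its level in kidney was 18.2 times that of stomach (51.9 FPKM; interval 16.7 to 19.8) and 22.1 times that of liver (42.8 FPKM; interval 20.1 to 24.3). Kidney stood alone at the top, and 10 tissues were at 1 FPKM or more. The liver level of Gsta2 was 4.53% of kidney, within the range of the kidney tubule markers in the liver library, and the part of admixed kidney RNA in it was not tested.

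Ugt1a2 (chr1:88200601-88218997, plus strand) was the most kidney-restricted member. It was at 252 FPKM in kidney from 9417 reads, at 0.122 FPKM in colon from 3 reads, and had no read in 12 tissues. The ratio to colon was 2069, with an interval of 708 to 10033. In liver, where the 6 kidney tubule markers stood at 2.11% to 20.3% of kidney, Ugt1a2 had 0 reads and so lay outside their range. Against a floor of 3 reads, kidney was at least 2888-fold higher than liver. The cause of this gap was not tested. The kidney and liver libraries also differ in Xist and Y-linked RNA, so organ and sex cannot be told apart here. Ugt1a2 has exons common to all Ugt1a genes, as described below, and which of its exons the reads came from is not known. Ugt1a10 (chr1:88055388-88219004, plus strand) was lower, at 9.89 FPKM in kidney and 0.591 in liver, a ratio of 16.7 (interval 9.15 to 34), and had no read in 16 tissues. The liver level was 5.98% of kidney, again within the range of the tubule markers.

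Sult1d1 (chr5:87554645-87569027, minus strand), a sulfotransferase of catecholamines and eicosanoids in mouse, was at 579 FPKM in kidney, 235 in intestine, 124 in stomach, 103 in colon, 93.9 in liver and 10.4 in lung, with a median of 0.278 over 19 tissues. Kidney, the gut and liver were high and most other tissues near 0. The kidney level was 4.67 times that of stomach (interval 4.49 to 4.86) but 2.47 times that of intestine (2.39 to 2.54). The liver level was 16.2% of kidney, above the tubule markers' median of 5.39% and exceeded by 1 of the 6 markers, Kap at 20.3%. Sult1d1 thus passed the rule over 13 tissues and not over 19. It also failed over 13 tissues at 8-fold and with median-of-ratios or upper-quartile scaling. With the Ugt1a genes summed into 1 feature, 2 members remained enriched in kidney, and without the liver library 7 were, since Ugt3a1, Ugt3a2 and Ugt2b38 then passed.

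Ugt3a2 and Ugt3a1, whose human relatives use UDP-sugars other than glucuronic acid, were the kidney UGTs with high levels also in liver. Ugt3a2 (chr15:9335550-9370955, plus strand) was the UGT with the highest kidney level, at 552 FPKM against 213 in liver, a ratio of 2.59 (interval 2.52 to 2.67). Ugt3a1 (chr15:9276888-9315032, plus strand) was at 209 FPKM in kidney and 98.5 in liver, a ratio of 2.12 (1.99 to 2.27). Beyond those organs, thymus was next for Ugt3a2 at 5.70 FPKM, or 2.67% of liver. Both had 0 reads in intestine. Their liver levels, 38.6% and 47.1% of kidney, exceeded the range of the kidney tubule markers in that library. Ugt2b38 stood at 51.8 FPKM in liver and 50.05 in kidney, which did not differ beyond counting error (ratio 1.04, interval 0.965 to 1.11), and 2 further tissues reached 1 FPKM.

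Kidney and liver were then compared directly over the 46 members at 1 FPKM in either. The kidney library carried Xist at 90.9 FPKM and the Y-linked genes at 0.140, whereas liver carried them at 0.00676 and 84.0, so organ and sex cannot be told apart in this comparison. Kidney was higher by at least 4-fold for 10 members (21.7%; 20.2% of all genes): Gsta2, Gsta4, Gstm5, Gsto2, Gstt2, Sult1c2, Sult1d1, Ugt1a10, Ugt1a2 and Ugt1a7c. That share was near that of all genes. Liver was higher for 21 (45.7%; 6.88% of all genes). The median log2 ratio of kidney to liver was -1.26 over members and 0.80 over all 15090 genes, and by family it was -2.87 for UGT, -2.73 for SULT and -0.88 for GST genes. The median of all genes rests on scaling by total reads. With size factors over the 13 tissues it shifted by -0.79 to 0.00 (median of ratios) and by -0.96 to -0.16 (upper quartile). With such factors from kidney and liver alone, the split of 10 to 21 members became 5 to 24 and 6 to 24. Of the 46 ratios, that of Ugt8a crossed 1, from 1.04 to 0.594 and 0.529 over the 13 tissues.

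**Figure D3:**
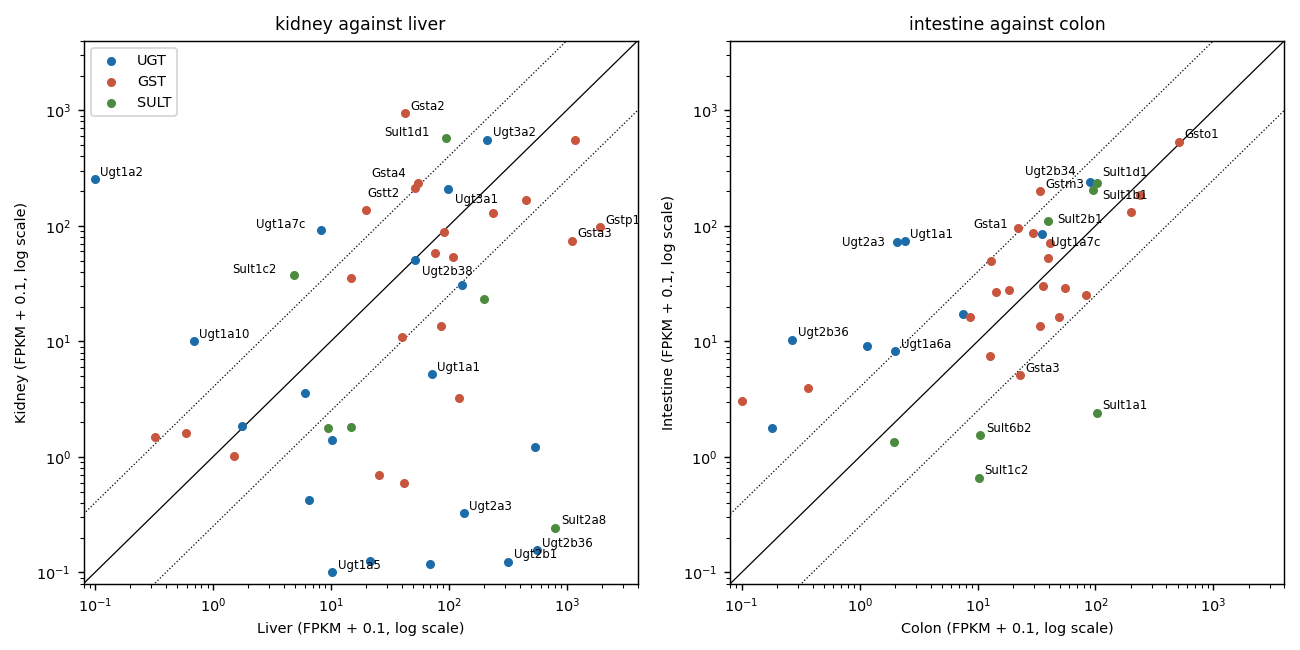
FPKM + 0.1 of members at 1 FPKM or more in either tissue, on log axes, for kidney against liver (left) and intestine against colon (right), with 1 point per gene, equality as a solid line and 4-fold differences as dotted lines. On the left, 10 members lie above the upper dotted line and 21 below the lower one. On the right, 10 lie above and 4 below.

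Among the other members higher in kidney than in liver, Gsta4, which conjugates the lipid peroxidation product 4-hydroxynonenal, was at 236 FPKM in kidney and 55.3 in liver (ratio 4.26, interval 3.94 to 4.62). Gstt2, a theta-class enzyme, was at 212 and 51.3 FPKM (ratio 4.13, interval 3.83 to 4.46). Gstm5 was at 138 and 19.8 FPKM (ratio 6.94, interval 6.09 to 7.94). Of these, Gstt2 had kidney as its highest tissue, whereas Gsta4 was highest in stomach and Gstm5 in testis. Their liver levels were 23.5% of kidney for Gsta4, 24.2% for Gstt2 and 14.4% for Gstm5, and those of Sult1c2, Gsto2 and Ugt1a7c were 12.8%, 16.1% and 8.78%, against a median of 5.39% and a highest value of 20.3% for the tubule markers in liver. That highest value was Kap, whose kidney to liver ratio was 4.92, and the next marker was Umod, with a ratio of 16.3. The part of admixed kidney RNA in these liver levels was not tested. When the other kidneys' mean replaced the single library, 8 members were at least 4-fold higher in kidney, and Gsta4 and Gstt2 no longer passed. With median-of-ratios scaling the ratios were 2.43 for Gsta4, 2.36 for Gstt2 and 3.96 for Gstm5, each under 4-fold. Gsta2 (12.6), Ugt1a10 (9.55), Ugt1a7c (6.51) and Sult1c2 (4.46) stayed above it.

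The kidney values could be set against other kidneys, since the authors' deposited kidney mean covers 3 libraries, including the one used here. Of 35 members at 1 FPKM in either, 3 were more than 1.5-fold higher in the single library than in the mean of the other 2 (Ugt1a10, Ugt2b37 and Ugt2b5; 3.06% of all genes) and 2 were lower by as much (Sult5a1 and Ugt8a; 5.2% of all genes). Gsta2 was at 769 FPKM in the mean of the others, Ugt3a2 at 571, Sult1d1 at 519, Ugt1a2 at 226 and Ugt1a10 at 6.09. Sult1d1 stood above Ugt3a2 in the single library and below it in the mean of the others. The spread between the other 2 libraries is not known, because only the mean of all 3 was deposited.

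**Figure D4:**
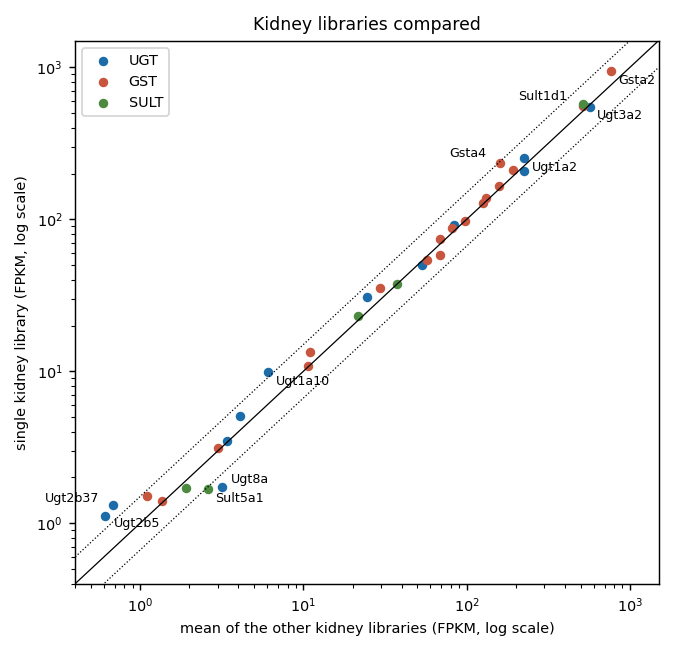
Members at 1 FPKM or more in kidney, with the single kidney library on the vertical axis and the mean of the other kidney libraries on the horizontal axis, both in FPKM on log scales. The solid line is equality and the dotted lines are 1.5-fold. Gsta2 (944 against 769 FPKM) and the other abundant members lie near the solid line, and Ugt1a10, Ugt2b37 and Ugt2b5 above the upper dotted line.

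The 13 liver-enriched members of the 13-tissue comparison were 10 UGT genes, Gsta3, Gstp1 and Sult2a8. Most of the UGT genes lie on chromosome 5, where Ugt2b34, Ugt2b1, Ugt2b35, Ugt2b36, Ugt2b5, Ugt2b37, Ugt2a3 and Ugt2b38 lie in one 702 kb stretch with Sult1b1, Sult1d1 and Sult1e1. The Ugt2b enzymes conjugate steroids, bile acids and drugs. Ugt2b36 (chr5:87065927-87092555, minus strand) was at 555 FPKM in liver, with a lowest level of 0 and a median of 0.0555 over 19 tissues, and next at 10.2 in intestine, a ratio of 54.5 (interval 47 to 63.6). Ugt2b5 (chr5:87124960-87140318, minus strand) was at 534 FPKM in liver and 8.98 in intestine, a ratio of 59.4 (52.7 to 67.2). Ugt2b1 (chr5:86916638-86926530, minus strand) was at 321 FPKM in liver and 5.14 in thymus, a ratio of 62.4 (54.6 to 71.6). Each was alone at the top in liver. In kidney, Ugt2b36 and Ugt2b1 had 1 read each.

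Ugt2b35 (69.3 FPKM) and Ugt2b37 (10.2 FPKM) were also liver-enriched, the former barely, since intestine was at 17.2 FPKM and the ratio with 0.1 FPKM added was 4.005. Just outside the rule over 19 tissues, that ratio was 3.71 for Ugt1a9. Ugt2a3 was at 133 FPKM in liver and 72.1 in intestine, a ratio of 1.85 (interval 1.76 to 1.94), and 2.07 in stomach was next. Ugt2b34 (chr5:86889767-86906937, minus strand) departed from its neighbours, with 238 FPKM in intestine, 130 in liver, 90.3 in stomach, 89.0 in colon and 30.7 in kidney. Its levels in stomach and colon did not differ beyond counting error (ratio 1.01, interval 0.972 to 1.06). No read was assigned to it in 7 tissues.

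Among the SULT genes, Sult2a8 (chr7:14410686-14446769, minus strand), which sulphates bile acids in mouse liver, was at 803 FPKM in liver and next at 11.6 in thymus. In kidney it had 3 reads, and the ratio of liver to kidney was 5573 (interval 1907 to 27027). It had no read in 12 tissues. Sult1a1 was at 199 FPKM in liver and 103 in colon. The GST genes enriched in liver were Gsta3 and Gstp1. Gsta3 (chr1:21240589-21265661, plus strand) was at 1107 FPKM, 6.55 times lung (169 FPKM; interval 6.33 to 6.78), and Gstp1 (chr19:4035407-4037921, minus strand) was at 1918 FPKM, 6.23 times WAT (308 FPKM; interval 6.02 to 6.44). Gstp1 was present in all 19 tissues, with a median of 123 FPKM and its lowest level, 17.5, in testis. Gstz1, which isomerizes maleylacetoacetate in tyrosine breakdown, was at 456 FPKM in liver and 232 in WAT, whereas Gstp3 was low, at 25.3 FPKM in liver and 14.8 in spleen. Gstk1, the mitochondrial and peroxisomal class, was at 109 in liver and 89.1 in stomach.

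The Ugt1a locus showed how members with common exons differed between tissues. Its 9 genes lie on the plus strand of chromosome 1 within chr1:88055388-88220002 (165 kb), in the order Ugt1a10, Ugt1a9, Ugt1a8, Ugt1a7c, Ugt1a6b, Ugt1a6a, Ugt1a5, Ugt1a2 and Ugt1a1. All 9 share 3 exons of 132, 88 and 220 bases, and 50.3% to 60.6% of the exonic bases of each gene are shared with another. Against Ugt1a1, the first 800 coding bases were 57.9% to 60.7% identical, and the last 700 were 100% identical. How the authors' counting treated reads in the shared exons is not given in the sources used here, so the level of each gene is uncertain to that extent.

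Along the locus the leading tissue alternated. Ugt1a10 was highest in kidney (9.89 FPKM), Ugt1a9 in liver (6.43), Ugt1a7c in kidney (92.5) and intestine (85.6), and Ugt1a6b in liver (21.4). Ugt1a6a, with its paralog Ugt1a6b a conjugator of small phenols, was highest in intestine (8.07) with liver at 5.99. Ugt1a5 was highest in liver (10.2) with no read in kidney, and Ugt1a2 in kidney (252) with no read in liver. Ugt1a1, the bilirubin-conjugating enzyme, was at 73.2 FPKM in intestine and 71.8 in liver, which did not differ beyond counting error (ratio 1.02, interval 0.965 to 1.08), and at 5.08 in kidney. Ugt1a8 had 1 tissue with any read. Ugt1a7c, with 11 tissues at 1 FPKM or more, had the broadest spread of the 9. The Ugt1a sum was 363 FPKM in kidney, 169 in intestine, 125 in liver, 39.4 in colon and 22.2 in stomach, so kidney led in this subfamily while the Ugt2b sum was 1671 FPKM in liver and 83.3 in kidney.

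**Figure D5:**
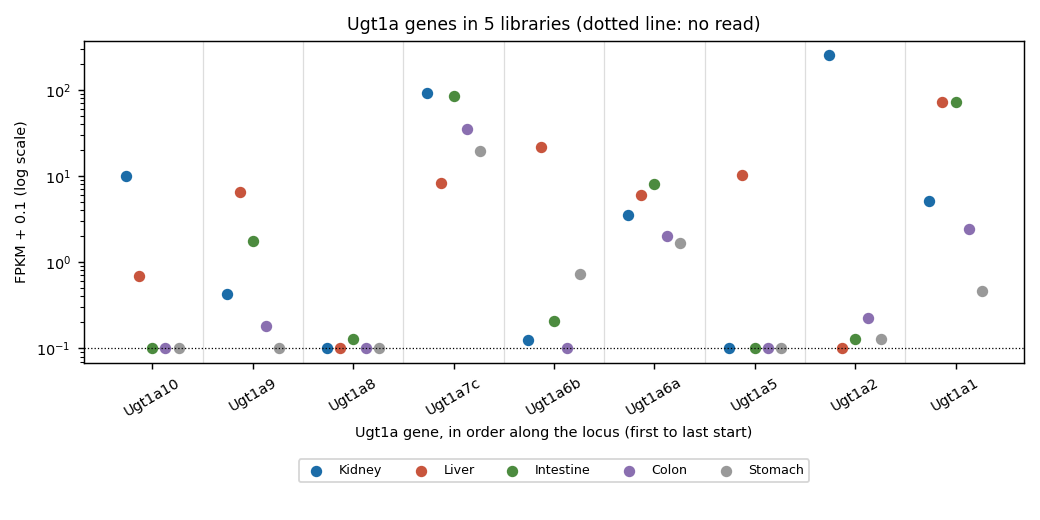
FPKM + 0.1 on a log axis of the 9 Ugt1a genes, in their order along the locus, in the kidney, liver, intestine, colon and stomach libraries, with points on the dotted line having no read. Kidney is highest for Ugt1a10, Ugt1a7c and Ugt1a2 (252 FPKM), liver for Ugt1a9, Ugt1a6b and Ugt1a5, and intestine for Ugt1a6a and Ugt1a1.

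Close paralogs elsewhere also had different leading tissues. Gsta1 and Gsta2, with coding sequences 97.6% identical, led in stomach and kidney. Gsta1 (chr9:78230656-78242684, plus strand) was at 912 FPKM in stomach and 1.52 in kidney, whereas Gsta2 was at 51.9 in stomach and 944 in kidney. Gstp1 and Gstp2 (98.1% identical) led in liver and colon, at 1918 and 33.9 FPKM. Ugt2b5 and Ugt2b38 (97% identical) were both highest in liver, but kidney was at 1.11 FPKM for the first and 50.05 for the second. Reads that match such paralogs equally well could be assigned to either, and the assignment rule is not given in the sources used here.

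Intestine and colon were compared over 37 members at 1 FPKM in either. Intestine was higher by at least 4-fold for 10 (27%; 7.92% of all genes): Gsta1, Gsta2, Gstm2-ps1, Gstm3, Ugt1a1, Ugt1a6a, Ugt1a9, Ugt2a3, Ugt2b36 and Ugt2b5. Colon was higher for 4 (6.81% of all genes): Gsta3, Sult1a1, Sult1c2 and Sult6b2. The median log2 ratio of intestine to colon was 2.96 for UGT, 0.41 for GST and -0.53 for SULT genes, against -0.15 over all 16156 genes. These libraries come from the separate tables, and the count of 10 became 6 with 1 FPKM added in place of 0.1.

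Ugt1a1 was at 73.2 FPKM in intestine and 2.30 in colon, a ratio of 31.8 (interval 24.5 to 42.1). Ugt2a3 showed a like contrast, at 72.1 and 1.99 FPKM, a ratio of 36.2 (27.1 to 49.4). Gstm3 was at 199 FPKM in intestine and 33.4 in colon (ratio 5.97, interval 5.43 to 6.57), and was the mu-class gene enriched in intestine over 19 tissues, with liver next at 41.9 FPKM. Sult1a1 went the other way, at 103 FPKM in colon and 2.30 in intestine, a ratio of 44.8 (33.2 to 62), and intestine was its lowest tissue of all 19. Sult6b2 was at 10.5 FPKM in colon and 1.44 in intestine (ratio 7.29, interval 5.24 to 10.4) and under 1 FPKM elsewhere.

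Other SULT genes were shared along the gut. Sult1b1, a sulfotransferase of phenols and thyroid hormone, was at 204 FPKM in intestine, 95.8 in colon, 63.7 in stomach and 14.9 in liver, with a median of 0.0936 over 19 tissues. Sult2b1, which sulphates cholesterol and pregnenolone, was at 109 FPKM in intestine, 39.7 in colon, 38.3 in WAT and 37.0 in skin. Colon and WAT did not differ beyond counting error (ratio 1.04, interval 0.921 to 1.16). Within the 6 tissues of the count table, 20 of 40 members were enriched in 1 tissue (19.5% of all genes), 17 of them in intestine (4.4%).

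Stomach had the largest GST sum. Gsta4 (chr9:78182774-78209349, plus strand) was at 1838 FPKM in stomach, 734 in eye and 236 in kidney, and at 2.77 or more in all 19 tissues, with a median of 42.0. Gsto1, an omega-class enzyme with thioltransferase and dehydroascorbate reductase activity, was at 3145 FPKM in stomach, and at 5348 in eye, its highest tissue and the highest level of any member. The ratio of eye to stomach was 1.70 (interval 1.68 to 1.72), and intestine and colon were next, at 532 and 509 FPKM. Gsta1 was 9.51 times higher in stomach than in intestine (95.9 FPKM; interval 8.96 to 10.1). Sult1c2 (chr17:53829637-53846339, minus strand) was at 253 FPKM in stomach, 37.3 in kidney, 14.9 in WAT and 10.1 in colon, and its ratio of stomach to kidney was 6.80 (6.39 to 7.24). Sult1c1, its neighbour, was at 6.06 FPKM in eye and under 1 FPKM elsewhere.

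Of the mu-class GST genes, 7 lie within 149 kb on chromosome 3. Gstm1, Gstm2, Gstm4, Gstm6 and Gstm7 were highest in WAT, Gstm5 in testis, Gstm3 in intestine and Gstm2-ps1 in lung. Gstm7 (chr3:107926334-107931817, minus strand) was at 1779 FPKM in WAT and 86.7 in liver, a ratio of 20.5 (interval 19.3 to 21.9), and 7.57 in BAT. Gstm2 was at 1030 FPKM in WAT and 203 in testis (ratio 5.06, interval 4.86 to 5.27), with BAT at 3.17% of WAT. Gstm1 was broad, at 1251 FPKM in WAT, 1170 in liver and 557 in kidney, with a median of 200.1. Gstm6 was at 271 FPKM in WAT and 121 in liver. Sult1e1, the oestrogen sulfotransferase, was at 90.8 FPKM in WAT and 10.4 in testis (ratio 8.71, interval 7.57 to 10.1), and at 0.319% of the WAT level in BAT. As given above, all 5 epididymis markers were present in WAT and absent in BAT. The part of epididymis RNA in these WAT levels was not tested. Without the WAT, parathyroid and aorta libraries, 28 members were enriched over the remaining tissues of the FPKM table.

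The theta-class GST genes, 4 of which lie within 63.3 kb on chromosome 10, summed to 376 FPKM in kidney, 373 in testis and 303 in liver. Gstt1, which acts on small halogenated compounds, was at 237 FPKM in liver and 129 in kidney (ratio 1.84, interval 1.74 to 1.95), with a median of 28.2 over 19 tissues. Gstt2 was at 212 FPKM in kidney and 106 in parathyroid (ratio 2.01, interval 1.90 to 2.12), with a median of 24.5. Gstt3 was lower, at 54.01 FPKM in parathyroid, 45.2 in WAT, 35.7 in colon, 35.1 in kidney and 14.8 in liver, and its lowest level was 1.64. The spread of Gstt4 was narrower, with 2 tissues at 1 FPKM or more.

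Testis-enriched members were Gstm5, Gsto2 and Gstt4. Gstm5 (chr3:107895821-107898686, plus strand) was at 1892 FPKM in testis, 336 in WAT and 138 in kidney, with a median of 48.6, and the ratio to WAT was 5.63 (interval 5.46 to 5.81). Its WAT level was 17.8% of testis, above the highest germ cell marker there (8.81%). Gstt4 (chr10:75814943-75822543, minus strand) was at 286 FPKM in testis and 1.87 in WAT, a ratio of 153 (107 to 227), and under 1 FPKM elsewhere. Its WAT level was 0.653% of testis, within the range of the germ cell markers in WAT. Gsto2 was at 148 FPKM in testis and 4.66 in BAT, a ratio of 31.7 (25.7 to 39.6).

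Brain had Ugt8a and Sult4a1 as enriched members. Ugt8a (chr3:125865271-125938619, minus strand), which makes the galactolipids of myelin from UDP-galactose, was at 44.3 FPKM in brain and 1.74 in kidney, a ratio of 25.5 (interval 20.6 to 32). Sult4a1 (chr15:84076097-84105754, minus strand), a neuronal sulfotransferase with no known substrate, was at 225 FPKM in brain and 23.8 in eye, a ratio of 9.44 (8.75 to 10.2). Eye was also second for the neuron markers, at 333 against 1267 FPKM summed over 3 genes. Sult5a1 was at 91.6 FPKM in skin, 21.3 in WAT, 10.2 in lung and 9.32 in liver.

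Gstm2-ps1, a processed pseudogene on chromosome 5, was the 1 member of 54 that was higher in all 6 tissues of the count table than in all 13 of the FPKM table (1.18% of all genes). It peaked at 5.40 FPKM in lung. It had 53 reads in lung, 32 in intestine and 26 in bone, where its parent Gstm2 had 1979, 346 and 104. In WAT it had 1 read beside 14499 of Gstm2. Whether reads were shared between these genes, or counted differently for the 6 and the 13 tissues, was not tested. The level of Gstm2-ps1 is uncertain.

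Genes that supply the donors and carry conjugates away were read beside the members, as lists, against the 20.2% of all genes that were at least 4-fold higher in kidney and the 6.88% in liver. Of 15 genes of glutathione synthesis, recycling and breakdown, 3 were at least 4-fold higher in kidney than liver. The number at least 4-fold higher in liver was 0, and the median log2 ratio was 0.98. The kidney share was near that of all genes. Ggt1, the enzyme that begins the breakdown of glutathione conjugates, was at 949 FPKM in kidney, 553 in intestine and 78.2 in liver. Of 8 genes that supply or use the sulphate donor, Papss1 and the sulphate transporter Slc13a1 were at least 4-fold higher in kidney, and none was so in liver (median 1.20), again a share near that of all genes. Slc13a1 was at 215 FPKM in kidney and 4.57 in liver. None of 4 genes of UDP-glucuronate supply and release passed in either direction (median -0.86). All of these medians stand against 0.80 over all genes with total-read scaling. Of 6 efflux pumps, 3 were at least 4-fold higher in kidney (20.2% of all genes) and 0 in liver (6.88%). Among the 3, Abcc4 was at 45.2 FPKM in kidney against 1.05 in liver. The membrane-bound Mgst1 was at 3738 FPKM in liver, above any soluble GST there, and at 115 in kidney.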

How the data were processed

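RNA from 19 mouse tissues, 1 library each, was grouped by the tissue in the sample titles. Extraction used Trizol and a column step with DNase, per the labels' protocols. The submitters' processing notes name DESeq2 but give neither its version nor its use. Aligner, counting rule, strandedness and build: not given in the sources used here. The authors deposited FPKM for 13 tissues and, for the other 6, raw read counts. A deposited group table held the same FPKM with kidney as a mean of 3 libraries, from which the mean of the other 2 was derived. A second FPKM table for the 6 tissues was not used.

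The deposited FPKM equalled reads divided by gene length and by total assigned reads, so reads and lengths were recovered from it, and 100% of values came out whole within 0.001 reads. FPKM of the 6 count tissues was computed with those lengths. Identifiers matched GENCODE M21 (GRCm38) for 99.9%, and 98.3% of those had identical coordinates. Coordinates are those of the deposited table.

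Enrichment in a tissue required at least 1 FPKM and a 4-fold ratio to every other tissue with 0.1 FPKM added. The same rule was used between pairs of tissues. Printed folds leave that addition out, except where stated. Intervals are 95% Clopper-Pearson intervals on reads, and a floor of 3 reads stood for no read, which is 0.178 reads per 1000000 in kidney. The rule and the read recovery were tested on simulated reads. Members and gene lists were chosen with earlier results of these data known. Members named in the text are, per subfamily, those with the highest levels, those enriched in kidney, liver, intestine, testis or brain, the widest and narrowest, and those with no read. Members named for passing a comparison, for kidney library differences, for a second leading tissue or as neighbours were named after their values were seen. Alternatives covered the added FPKM, level, fold, scaling, libraries left out, other kidney libraries and the Ugt1a genes summed. Of the sulphate donor list, 8 of 10 symbols were found. Some genes of the lists are not reported here. Software versions were edlib 1.3.9.post1, matplotlib 3.10.9, scipy 1.17.1, pandas 2.3.3, numpy 2.4.6 and Python 3.11.15.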

Additional observations from a re-analysis of the deposited data

How the results depend on the processing

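Of the recomputed counts and family ratios, 80 stayed within 1.5 times the reported count or within counting error, 23 moved and 0 reversed. Members enriched over 19 tissues numbered 18 at 8-fold. Members enriched in kidney numbered 8 at 2-fold, 2 with Ugt1a genes summed and 7 without the liver library. Members higher in kidney than liver numbered 4 at 8-fold, 5 with median-of-ratios and 6 with upper-quartile scaling. Members higher in intestine than colon numbered 18 at 2-fold, 6 at 8-fold and 6 with 1 FPKM added, and those higher in colon 7 at 2-fold and 2 at 8-fold.

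The kidney to liver ratio of summed FPKM was 0.539 for UGT, 0.498 for GST and 0.571 for SULT genes. With reads per 1000000 it was 0.53, 0.43 and 0.68. With median-of-ratios scaling it was 0.308, 0.284 and 0.326, and with upper-quartile scaling 0.274, 0.253 and 0.29. With the other kidneys in its place it was 0.439 for GST and 0.518 for SULT genes. The cause of these shifts was not tested. Liver stayed higher in each. Single enriched members were recomputed with other added FPKM, scalings or kidney libraries, or with libraries other than the called tissue left out. Of these alternatives, 363 kept the 4-fold ratio of the called tissue to the next. The other 12 did not, in Gstm2, Gstm3, Sult1d1, Sult2a5, Sult5a1 and Ugt2b35. These 2 counts left out the 1 FPKM minimum. With that minimum, Sult2a5 also lost its call under median-of-ratios and upper-quartile scaling, over 13 and over 19 tissues. Over 19 tissues, an 8-fold rule ended the call for Gsta3, Gstm2, Gstm3, Gstm5, Gstp1, Sult1c2, Sult5a1, Sult6b2, Ugt2b35 and Ugt2b37. Summing the Ugt1a genes removed Ugt1a2, Ugt1a5, Ugt1a6b and Ugt1a10. No paired analysis was possible because each tissue has 1 library and no result comes from a test. Levels near a few reads are limited by depth, and exons shared among Ugt1a genes and close paralogs limit what a single gene's level means.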

Other observations

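Among regulators of these enzymes, Nr1i3, the nuclear receptor CAR, which controls many conjugating enzymes in liver, was at least 4-fold higher in liver than kidney. It was at 77.5 FPKM in liver, 57.2 in intestine, 5.69 in colon and 1.93 in kidney. Hnf4a was at 361 FPKM in colon, 333 in kidney, 313 in intestine and 290 in liver, and at 1.69 in heart. Nfe2l2, which encodes the oxidant-sensing factor NRF2, was at 167 FPKM in stomach, 157 in intestine, 60.2 in kidney and 31.1 in liver. Of 6 NRF2 targets, Nqo1 was at least 4-fold higher in kidney than liver (20.2% of all genes) and 0 were so in liver (6.88% of all genes), so the kidney share was near that of all genes. Nqo1 was highest in stomach, at 417 FPKM.

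Among other conjugating enzymes, the methyltransferases Nnmt and Inmt were at least 4-fold higher in liver than kidney, as was Baat, which joins bile acids to amino acids. These 3 are named for passing that comparison. Baat was at 158 FPKM in liver and 3.58 in kidney. Glyat, which joins glycine to acids, was at 205 FPKM in kidney and 165 in liver, and under 3 FPKM in the colon, intestine, stomach, heart, testis, thymus and WAT libraries. Of 6 membrane GSTs and relatives at 1 FPKM in kidney or liver, Mgst3, Ptges and Ltc4s were at least 4-fold higher in kidney (20.2% of all genes) and Mgst1 in liver (6.88%).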
